A study of Mus musculus with 9 samples.

Results

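The secreted products of Paneth cells other than the defensins were followed as 7 genes among the 54532 of the deposited table, namely Lyz1, Ang4, Itln1, Mptx1, Mptx2, Mmp7 and Habp2. They were found by gene symbol, and they were chosen from measured values, since their levels in these libraries were known when the set was drawn up. RNA from the duodenum of mice was sequenced in 9 libraries, with 3 in each group. The Control group was wild type and had gluten stimulation without enhancement. CeD mice were a celiac disease model of delayed-type hypersensitivity (DTH) under enhanced gluten stimulation. CeD+GR mice were that model under the same enhanced stimulation, given composite nanoparticles of gliadin and rapamycin beforehand. Gliadin is a fraction of the gluten proteins, and rapamycin inhibits the mTOR kinase. The labels give no strain, age or sex, and Control differs from CeD both in the model and in the stimulation, so these cannot be told apart. Whether each library is an animal of its own is not in the labels, and p-values then measure nothing but how far these samples lie apart, a spread that may be technical. Libraries are called by group and replicate number, and the labels do not say what samples of 1 number share.

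Paneth cells sit at the base of the small intestinal crypts, between the stem cells, and release granules of antimicrobial proteins into the crypt lumen. Their granules hold lysozyme, defensins, ribonucleases and lectins, which act on the walls and surface sugars of bacteria, together with a metalloprotease that in mice activates the alpha-defensins. They also make signals that support the neighbouring stem cells, and they are usually fewer in the duodenum than in the ileum.

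The members lie on 5 chromosomes, and 3 of them, Lyz1, Mptx1 and Mptx2, share more transcript sequence with a close paralog than the other members share with any gene. Lyz1 (ENSMUSG00000069515, mm10 chr10:117287797-117292868, minus strand, 4 exons) lies 5475 bases from Lyz2, the lysozyme gene of macrophages. Mptx1 (ENSMUSG00000026531, chr1:174330518-174332873, plus strand) and Mptx2 (ENSMUSG00000079180, chr1:173274382-173277777, minus strand) are 1052740 bases apart and have 2 exons each. All 7 coordinates are those of the GENCODE M21 annotation. Of the 50-base words in annotated Lyz1 transcripts, 16.1% also occur in Lyz2, and 17.9% of those of Mptx1 occur in Mptx2. The shares were 4.70% for Ang4, with Ang5 and Ang2, and 0.97% for Itln1, with the predicted gene Gm9765. They were 0% for Mmp7 and Habp2. A read inside such a word cannot be given to 1 gene, and how the counting treated it is not given in the sources used here.

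The upstream sequences of the 2 paralog pairs are shown because the members of each pair had different levels in these libraries. They are RefSeq sequence of the build GRCm38.p6, 5′ to 3′ on the strand of the gene, from 170 to 51 bases before the RefSeq transcript start. Capitals mark bases with no identical partner when the 250 bases upstream of both genes are aligned. Lyz1 is shown at chr10:117292919-117293038 and Lyz2 at chr10:117282323-117282442, both on the minus strand. Mptx1 is shown at chr1:174330348-174330467 on the plus strand and Mptx2 at chr1:173277807-173277926 on the minus strand.
Lyz1: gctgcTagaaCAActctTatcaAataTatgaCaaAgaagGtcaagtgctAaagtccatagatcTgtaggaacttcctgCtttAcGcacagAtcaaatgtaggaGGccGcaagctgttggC
Lyz2: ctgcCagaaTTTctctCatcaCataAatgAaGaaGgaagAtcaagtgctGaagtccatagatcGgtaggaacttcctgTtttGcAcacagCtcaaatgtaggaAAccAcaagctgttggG
Mptx1: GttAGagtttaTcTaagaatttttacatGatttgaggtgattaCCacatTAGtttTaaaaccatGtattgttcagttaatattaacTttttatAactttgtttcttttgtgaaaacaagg
Mptx2: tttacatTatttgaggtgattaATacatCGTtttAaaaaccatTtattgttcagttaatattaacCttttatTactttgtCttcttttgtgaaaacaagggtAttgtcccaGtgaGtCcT
In these stretches, 100 of 120 bases of Lyz1 had an identical partner in Lyz2, and 105 of 120 bases of Mptx1 had one in Mptx2. Over the whole 250 bases the identity was 79.4% for Lyz1 and Lyz2 and 72.8% for Mptx1 and Mptx2, whereas the other pairs among these 8 genes lay between 40.3% and 49.1%. The TATA box letters TATAAA, searched on both strands, occurred in the 250 bases upstream of Mptx1 and of Mmp7, at 2 positions each, and 12.4% of the 32851 RefSeq windows of that length hold them. The TCF letters CTTTGAA or CTTTGAT or CTTTGTA or CTTTGTT, for the factors that carry Wnt signals to DNA, occurred only upstream of Mptx1 among these 8 genes, at 2 positions. They were found in 14.8% of the windows. Such matches describe the letters and show no binding.

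The reads assigned to genes numbered 15373260 to 16852104 in a library. The authors' values are FPKM, fragment counts scaled to transcript length and library size, so that levels of different genes can be set side by side. Some libraries stood apart. CeD+GR 3 had a summed level of 140705 FPKM over gastric and Brunner gland markers, against at most 52.4 FPKM elsewhere. The sum was 7.07 FPKM in Control 1, 52.4 FPKM in CeD 1 and 4.47 FPKM in CeD+GR 1. In the remaining libraries it was at most 1.17 FPKM, in CeD 2. CeD 1 had 3628 FPKM over exocrine pancreas markers, against at most 71.3 FPKM elsewhere, and CeD+GR 2 had 116 FPKM over fat cell markers, against at most 9.99 FPKM. The 3 libraries with replicate number 1 were the high ones for alpha-defensins, the marker peptides of the Paneth cell, whose 22 genes summed to 1117 to 2426 FPKM there and to 39.7 to 149 FPKM in the other 6. In bulk tissue, fewer cells of a type and less RNA per cell cannot be told apart.

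The 7 genes together made up 0.0534%, 0.114% and 0.0788% of the assigned reads in Control 1, CeD 1 and CeD+GR 1. In the other libraries their share lay between 0.0045% in Control 2 and 0.0225% in CeD+GR 3, where Habp2 alone had 2693 of 3639 reads. Without Habp2 it was 0.0059% there, and the highest of these 6 was 0.0105% in Control 3. All 3 replicate 1 libraries were above the other 6 for 6 of the 7 genes, the exception being Habp2. Among all tested genes 9.06% showed that order. Since measured levels chose the members, nothing is read from this count, and the levels by replicate number below are a description without a test.

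**Figure D1:**
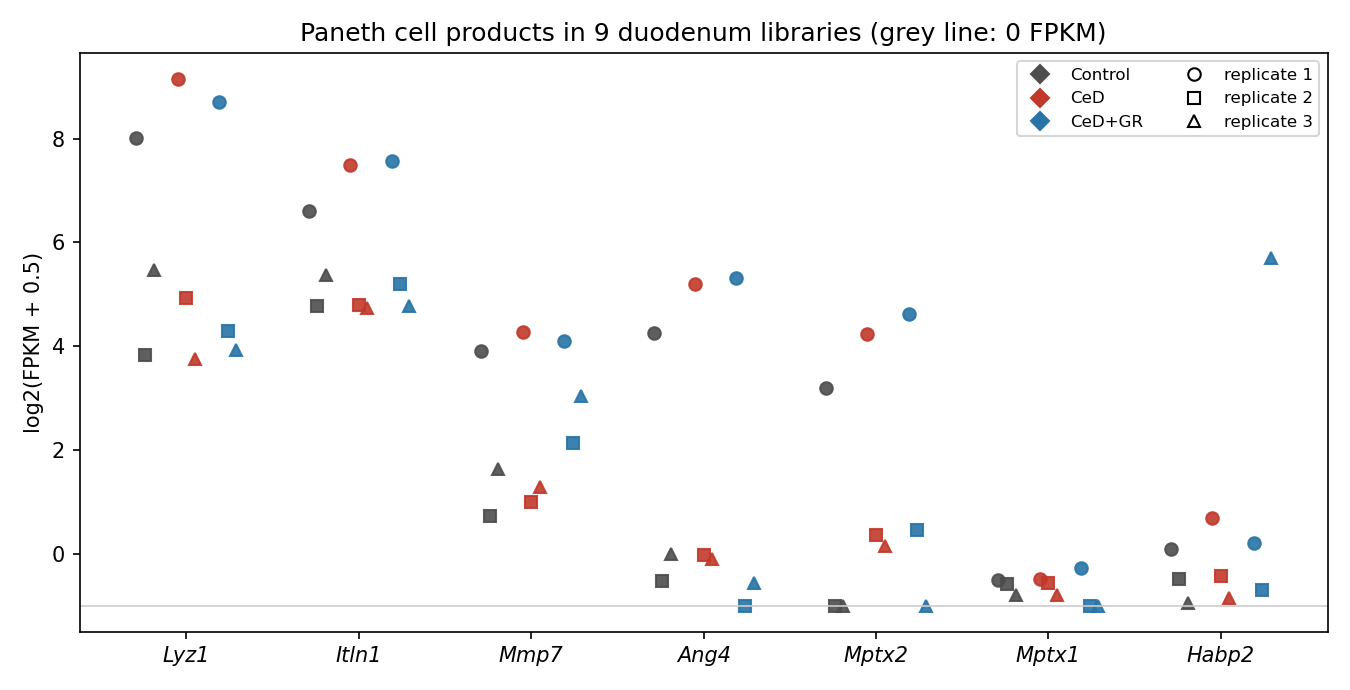
Level of each gene in the 9 libraries, as log2(FPKM + 0.5), with colour for the group and shape for the replicate number; the grey line is 0 FPKM. The circles of replicate 1 lie above the squares and triangles for 6 genes, while Habp2 is highest in CeD+GR 3.

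Lyz1 encodes the lysozyme of Paneth granules, an enzyme that cuts bacterial cell walls, and it had the highest mean FPKM of the members over the 9 libraries, although Itln1 was above it in 4 of them. It stood at 259, 13.8 and 43.6 FPKM in the Control libraries 1 to 3, at 564, 29.9 and 13.0 FPKM in the CeD libraries and at 415, 19.2 and 14.8 FPKM in the CeD+GR libraries. The replicate 1 library was the highest in each group, and the ranges of the groups overlapped. The lowest replicate 1 level was 5.94 times the highest of the other 6. Of 14683 tested genes it ranked 29 by the log2 difference between replicate 1 and the others, 4.25. Lyz1 made up 60.5% to 69.0% of the summed FPKM of the 7 genes in replicate 1 and 14.6% to 49.9% in the other libraries.

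Ang4 (ENSMUSG00000060615, chr14:51763878-51773590, minus strand) encodes a ribonuclease of the angiogenin family that kills bacteria. Its level was 18.5, 0.193 and 0.502 FPKM in the Control libraries 1 to 3, 36.4, 0.489 and 0.428 FPKM in the CeD libraries, and 39.4, 0 and 0.173 FPKM in the CeD+GR libraries. It was near the limit of detection outside replicate 1. The 3 replicate 1 libraries held 1132 of its reads and the other 6 held 20, and the 0 in CeD+GR 2 allows up to 0.269 FPKM at 3 reads. The mean of replicate 1 was 106 times that of the other libraries, which placed Ang4 at rank 2 of the tested genes by log2 difference.

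Itln1 (ENSMUSG00000038209, chr1:171518122-171535294, minus strand) encodes intelectin 1, a lectin that binds microbial sugars. It stood at 96.3, 26.9 and 40.6 FPKM in the Control libraries 1 to 3, at 179, 27.1 and 26.0 FPKM in the CeD libraries and at 190, 36.1 and 27.0 FPKM in the CeD+GR libraries. The difference between replicate 1 and the rest was 5.06-fold in the means. Outside replicate 1 its highest level was 1.56 times its lowest, the narrowest such range among the members with no library at 0.

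The mucosal pentraxins Mptx2 and Mptx1 belong to the family of C-reactive protein. Mptx2 stood at 8.65, 0 and 0 FPKM in the Control libraries 1 to 3, at 18.4, 0.787 and 0.611 FPKM in the CeD libraries and at 24.0, 0.880 and 0 FPKM in the CeD+GR libraries. Again only the replicate 1 libraries were well above the level of a few reads, with 681 reads against 28 in the other 6. The zeros allow up to 0.258 FPKM in Control 2, 0.224 FPKM in Control 3 and 0.231 FPKM in CeD+GR 3. Mptx1 was at most 0.323 FPKM, in CeD+GR 1, and had 16 reads in all, so it was not tested. It had 10 reads in replicate 1 (95% exact Poisson interval 4.795 to 18.4) and 6 in the others (2.20 to 13.1). These intervals cover counting error only, and the lowest replicate 1 level of Mptx1 was only 1.19 times the highest of the rest. On the FPKM scale, Mptx2 stood 41.9 to 87.5 times above Mptx1 in the replicate 1 libraries.

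Mmp7 (ENSMUSG00000018623, chr9:7692090-7699585, plus strand, 6 exons) encodes matrilysin, the metalloprotease that cuts the precursors of alpha-defensins in mouse Paneth cells. It stood at 14.6, 1.15 and 2.61 FPKM in the Control libraries 1 to 3, at 18.8, 1.49 and 1.93 FPKM in the CeD libraries and at 16.7, 3.86 and 7.73 FPKM in the CeD+GR libraries. In replicate 1 its highest level was 1.29 times its lowest, the narrowest range of the 7 genes there. Outside replicate 1, CeD+GR 2 and CeD+GR 3 were above the 4 Control and CeD libraries. The higher of them, CeD+GR 3, is the library with gastric transcripts, and their part in this value was not tested. The share of all tested genes with that order was not counted, so nothing is read from it. The gene overlaps AV064505 on the opposite strand, and whether the counting used strand is not given in the sources used here.

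Habp2 (ENSMUSG00000025075, chr19:56287137-56320822, plus strand, 14 exons) encodes a secreted serine protease that binds hyaluronan. It stood at 0.568, 0.214 and 0.0186 FPKM in the Control libraries 1 to 3, at 1.11, 0.239 and 0.0570 FPKM in the CeD libraries and at 0.647, 0.119 and 51.6 FPKM in the CeD+GR libraries. It was high only in CeD+GR 3, the library with gastric transcripts, which held 2693 of its 2852 reads, and it passed the filter on low values through that library alone. Among the 8 libraries without it, the 3 of replicate 1 were the highest. The gene overlaps Nrap on the opposite strand. CeD+GR 3 was thus the library in which Habp2 departed from the order seen for the other Paneth products.

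The paralogs of the members were set beside them, also as a description by replicate number. Lyz2 stood at 54.4, 27.8 and 31.4 FPKM in the Control libraries 1 to 3, at 40.2, 28.7 and 39.7 FPKM in the CeD libraries and at 62.7, 38.5 and 37.6 FPKM in the CeD+GR libraries. Its replicate 1 mean was 1.54 times that of the others, against 18.4 times for Lyz1. These are the genes whose upstream stretches are printed above, with 20 of 120 bases of Lyz1 in capitals. The ratio of Lyz1 to Lyz2 was 4.76 to 14.0 in replicate 1 and 0.328 to 1.39 in the other 6 libraries, so Lyz2 exceeded Lyz1 in 4 of these 6. Ang, the founding angiogenin, ran from 7.93 to 15.1 FPKM in replicate 1 and from 13.0 to 21.2 FPKM in the others, with overlap. The gene overlaps Rnase4 on the same strand, and 14.5% of its 50-base words also occur in Rnase4 or Ang2. Its level thus depends on how shared reads were counted, which is not given in the sources used here. Ang2 reached at most 0.0626 FPKM, and Ang5 and Ang6 were listed at 0 in all libraries. Of the pentraxins next to Mptx2, Apcs was at most 0.189 FPKM, and Crp lay between 0.124 and 1.29 FPKM.

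**Figure D2:**
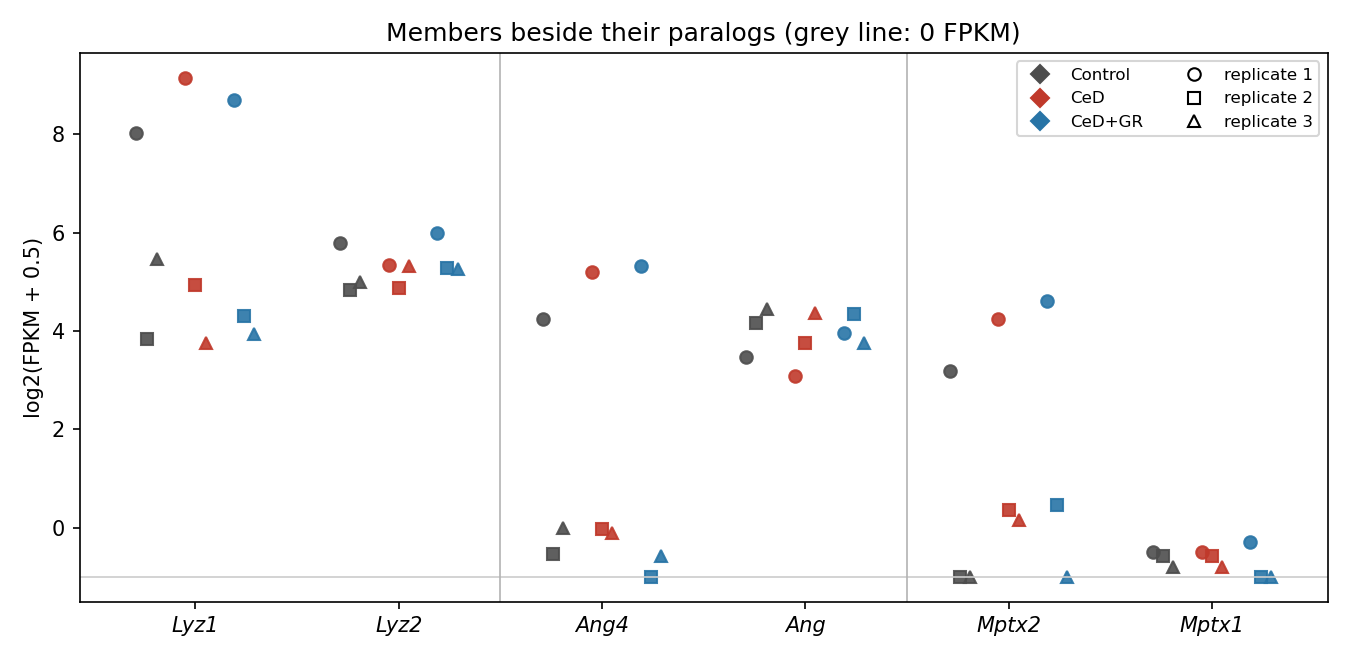
Level of Lyz1, Ang4 and Mptx2 beside their paralogs Lyz2, Ang and Mptx1 in the 9 libraries, as log2(FPKM + 0.5); the grey line is 0 FPKM. Lyz1 spreads from 13.0 to 564 FPKM while Lyz2 stays between 27.8 and 62.7 FPKM, and Ang4 falls to 0 where Ang does not.

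The products did not keep fixed proportions to each other. The ratio of Lyz1 to Itln1 was 2.19 to 3.16 in replicate 1 and 0.501 to 1.10 elsewhere. Lyz1 was 10.5 to 15.5 times Ang4 in replicate 1 and 30.4 to 86.9 times Ang4 in the 5 other libraries where Ang4 was above 0, and at least 71.3 times its floor of 3 reads in CeD+GR 2. The ratio of Lyz1 to Mptx2 was 17.3 to 30.6 in replicate 1 and 21.3 to 38.1 in the 3 other libraries with Mptx2, but where Mptx2 was at 0 the ratio was at least 53.4 in Control 2, 194.7 in Control 3 and 63.9 in CeD+GR 3, taking 3 reads per library as the floor. By the root mean square difference of centred log2(FPKM + 0.5) over the 9 libraries, the nearest members were Itln1 and Mmp7 at 0.66 and Lyz1 and Ang4 at 0.68, and the farthest were Ang4 and Habp2 at 3.26.

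The comparison of CeD with Control asks how the model under enhanced gluten differs from wild type without it. No member passed the test. The log2 fold changes, on the scale of log2(FPKM + 0.5), were 0.17 for Lyz1 (SE 1.73), 0.45 for Ang4 (SE 2.09), 1.19 for Mptx2 (SE 1.74), 0.09 for Itln1 (SE 0.94), 0.09 for Mmp7 (SE 1.04) and 0.25 for Habp2 (SE 1.42). The Control mean of Lyz1 was 105 ± 134 FPKM (SD, n = 3) and its CeD mean 202 ± 314 FPKM, and the 95% interval of its log2 change ran from -3.76 to 4.10. The adjusted p of limma was 1 for each of the 6 tested members. Their median change was 0.21, or 0.17 without Habp2, and that of all tested genes 0.00. For 0 of the 7 members the groups did not overlap, against 4.69% of tested genes. For 6 of the 7 this was fixed beforehand, since each group holds 1 of the replicate 1 libraries that stood above all others. Nothing is therefore read from that count. Limma called 0 of the 6 tested members and 0% of all tested genes. Over all genes, 40 were higher and 63 lower at an unadjusted limma p under 0.05, and limma-voom, run on reads recovered from the FPKM, called 0 as well, with 27 higher and 37 lower.

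CeD+GR was compared with CeD to ask whether the nanoparticles given beforehand went with other levels. Here too limma called 0 of 6 members, with an adjusted p of 1 for each, and 0% of all tested genes. The log2 fold changes were -0.30 for Lyz1, -0.44 for Ang4, -0.23 for Mptx2, 0.18 for Itln1, 0.91 for Mmp7 and 1.94 for Habp2, with the same standard errors as above. The Habp2 value rested on CeD+GR 3 and was -0.048 without that library. The median of the members was -0.02, or -0.23 without Habp2, which passed the filter only through CeD+GR 3, and that of all tested genes was 0.01. Groups did not overlap for 0 of 7 members and for 6.05% of tested genes. As above, the replicate 1 libraries fixed this beforehand for 6 of the 7, so nothing is read from it. Of all genes, 167 were higher and 258 lower at an unadjusted limma p under 0.05, and limma-voom called 0, with 105 higher and 277 lower.

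Against Control, CeD+GR showed log2 fold changes of -0.13 for Lyz1, 0.01 for Ang4, 0.96 for Mptx2, 0.27 for Itln1, 0.999 for Mmp7 and 2.18 for Habp2. Without CeD+GR 3 the Habp2 value was 0.20. The Control mean of Mmp7 was 6.10 ± 7.35 FPKM (SD, n = 3) and its CeD+GR mean 9.43 ± 6.58 FPKM, and the 95% interval of its log2 change ran from -1.37 to 3.36. The adjusted p of limma was 1 for each of the 6 members, and 0% of all tested genes were called. The groups overlapped for all 7 members, where 5.58% of tested genes did not. That overlap too was fixed beforehand for 6 of the 7, and nothing is read from it. The median of the 5 tested members other than Habp2 was 0.27, and 0.62 with it, while that of all tested genes was -0.00. Among all genes, 193 were higher and 207 lower at an unadjusted limma p under 0.05, and limma-voom called 0, with 136 higher and 199 lower. The comparisons share libraries and are not independent of each other.

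**Figure D3:**
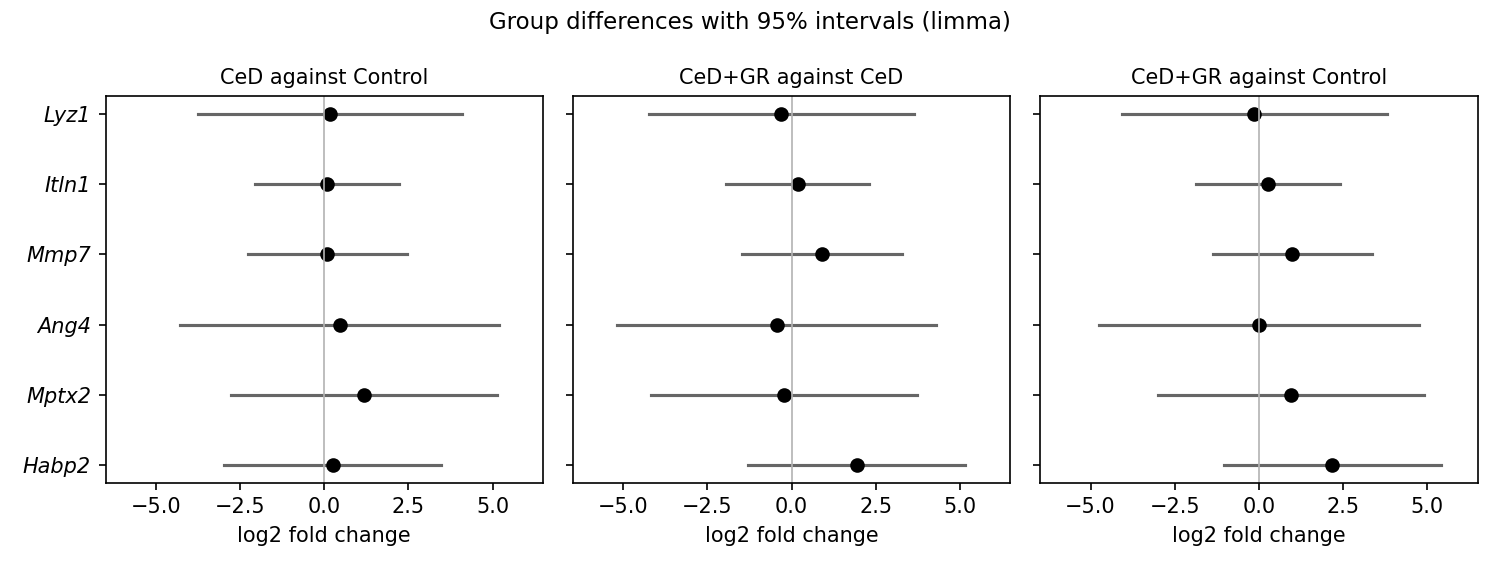
Log2 fold change of the 6 tested members in the 3 comparisons of groups, on the log2(FPKM + 0.5) scale; points are limma estimates and bars their 95% intervals. Every bar crosses 0, and the bar of Ang4 between CeD and Control runs from -4.30 to 5.21.

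Several of these changes reversed when a single library was left out. The estimate for Mmp7, which was not called, stayed above 0 for CeD+GR against CeD whichever library was left out (0.31 to 1.95 on the log2 scale). It also did so against Control (0.32 to 1.91), as did that of Habp2, although Habp2 was high only in CeD+GR 3. Leaving out a library of the group not compared cannot move an estimate, so these signs are no measure of stability. Without CeD 1, the change of Lyz1 between CeD and Control was -1.43, and without Control 1 it was 1.29. For Ang4 the same values were -1.30 and 1.96, and for Itln1 they were -0.82 and 0.60. With replicates 2 and 3 alone, Lyz1 was at -0.31 (SE 0.65) and Itln1 at -0.31 (SE 0.29) between CeD and Control. In the same libraries Mmp7 was 1.44 higher (SE 0.47) in CeD+GR than in CeD on the log2 scale, with an adjusted limma p of 0.798. Leaving out CeD+GR 1 put Lyz1 at -1.83 and Ang4 at -2.48 between CeD+GR and CeD.

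Samples of 1 number were also set side by side, with 1 library per group and hence no test. In replicate 1, Control 1 was the lowest library for all 7 genes, although Mptx1 had 3 reads there and 3 in CeD 1. The share of all tested genes lowest in Control 1 was not counted, so nothing is read from this count. The level in CeD 1 was 2.18 times that in Control 1 for Lyz1, 1.97 times for Ang4, 2.13 times for Mptx2, 1.86 times for Itln1 and 1.29 times for Mmp7. In replicate 2 the ratio was 2.17 for Lyz1, 2.54 for Ang4, 1.30 for Mmp7 and 1.01 for Itln1. In replicate 3 the order was the opposite for 4 of these, with CeD 3 at 0.299 times Control 3 for Lyz1, 0.853 times for Ang4, 0.640 times for Itln1 and 0.741 times for Mmp7. The Ang4 ratios of replicates 2 and 3 rest on few reads, 2 in Control 2 and 5 in CeD 2, and 6 in Control 3 and 5 in CeD 3. Mptx2 was higher in the CeD library of each number, although its Control libraries 2 and 3 were at 0. The level of Mmp7 in CeD+GR was 1.15, 3.36 and 2.96 times that in Control for replicates 1, 2 and 3. CeD+GR 1 was above CeD 1 for Ang4, Mptx2 and Itln1, at 1.08, 1.30 and 1.06 times its level, and below it for Lyz1 and Mmp7, at 0.735 and 0.888 times. CeD 1 is the library with pancreatic transcripts, and their part in these values was not tested.

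The genes most like the members were found by the same root mean square difference, over 9 libraries, between a gene's centred log2 profile and the mean profile of the 6 tested members. The nearest was Ccnb1, a cyclin of mitosis, at 0.41, followed by the alpha-defensin Defa36 at 0.50 and Hhip, which binds hedgehog ligands, at 0.53. Top2a, Kif11, Aurkb, Nusap1 and Pbk, which act in chromosome separation or cell division, were also among the first 10, as was Defa37. Ccnb1 stood at 4.62 FPKM in Control 1, 7.04 FPKM in CeD 1 and 4.69 FPKM in CeD+GR 1, whereas the highest of the rest, CeD+GR 3, had 2.10 FPKM. The mean profile includes Habp2, and so it has a second high point in that library. Taken singly, Lyz1 was nearest to Defa24 (0.31), Ang4 to Defa29 (0.38), Mptx2 to Defa36 (0.65), Mmp7 to Ccnb1 (0.42), Itln1 to Adamdec1 (0.28) and Habp2 to Cfi (0.34). Cfi, a complement protease, stood at 77.9 FPKM in CeD+GR 3 and at 2.75 FPKM or less in the other libraries, the order seen for Habp2. Reads of one alpha-defensin may belong to a near-identical one.

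Other genes of the Paneth cell did not all go with these products. All 15 tested alpha-defensins were above the other 6 libraries in each replicate 1 library, as were 9.06% of all tested genes. Several of the 15 passed the filter on low values only through the replicate 1 libraries, so nothing is read from this count. Defa5 and Defa20, for example, had means of 0 and 0.0465 FPKM in the other 6. Of the 15, 0 were called in any of the 3 group comparisons. Of 9 factors of Paneth and secretory cell identity, 0 were higher in all replicate 1 libraries and 1, the Wnt effector Tcf7l2, was lower in all of them. Xbp1, a factor of secretory capacity, stood at 82.7 to 102 FPKM in replicate 1 and at 54.6 to 202 FPKM in the others. Spdef, a factor of goblet and Paneth cell maturation, stood at 3.70 to 6.34 FPKM in 8 libraries and at 238 FPKM in CeD+GR 3. The Wnt receptor gene Fzd5 ran from 8.69 to 23.2 FPKM with overlap. Of 7 tested genes of granules and autophagy, 0 were above and 2, Ripk2 and Atg16l1, were below the other libraries in replicate 1. Of the niche ligands, Wnt3 was not tested but was above in replicate 1, at 0.375 to 0.438 FPKM against at most 0.248 FPKM, with 63 reads against 30. Egf, at most 0.494 FPKM, was not tested either, and of the 3 tested ligands Dll1, Dll4 and Tgfa 0 stood apart. Over all tested genes, 7.25% were below the other 6 libraries in each replicate 1 library. Limma called 0 members of each of these lists in the 3 comparisons.

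Markers of other cells were read in the same way, to set them beside the products. Over all tested genes, 9.06% were above and 7.25% below the other 6 libraries in every replicate 1 library, the shares to set beside the counts that follow. Macrophage markers summed to 88.0 to 133 FPKM in replicate 1 and to 34.1 to 65.5 FPKM in the other libraries, and 6 of the 8, among them C1qa, C1qb and Csf1r, were above in every replicate 1 library. The summed members and Lyz2 were also higher in replicate 1, but within it the members had another order. Over Control 1, CeD 1 and CeD+GR 1 the macrophage markers summed to 118, 88.0 and 133 FPKM, and the members to 398, 818 and 686 FPKM. Lyz2 stood at 54.4, 40.2 and 62.7 FPKM there, lowest in CeD 1 as the sum of the macrophage markers was. Taken singly, Csf1r, C1qa, C1qb and C1qc were lowest in CeD 1. Cd68 and Adgre1 were highest there, and Mrc1 and Cx3cr1 were lowest in CeD+GR 1. The part of macrophages in the lysozyme levels was not tested. Of 7 stem cell markers, Lgr5 and Olfm4 were above in replicate 1. Olfm4 stood at 110 FPKM in Control 1, 181 FPKM in CeD 1 and 119 FPKM in CeD+GR 1, with 40.8 FPKM or less elsewhere. Goblet cell markers, which matter for Itln1 because goblet cells can also make it, summed to 2881 to 3728 FPKM in replicate 1 and 3627 to 5926 FPKM in the others, and 0 of 7 tested stood apart. The highest of these sums was that of CeD+GR 3, where Agr2 had 4298 FPKM against 71.8 FPKM or less elsewhere. Muc2, Tff3, Zg16 and Fcgbp were lowest in that library, at 33.0, 623, 557 and 128 FPKM, and Clca1 and Spink4 were not. Retnlb, a goblet cell product of type 2 immunity, was listed at 0 in 8 libraries, and Il5 in all. Other type 2 cytokines and alarmins were above 0, with Il33 at 5.18 to 34.7 FPKM and Il4 at 0.0526 to 0.847 FPKM. Tslp was at most 0.785 FPKM, Il25 at most 0.477 FPKM and Il13 at most 0.0456 FPKM. Enterocyte markers summed to 12779 to 28908 FPKM in replicate 1 and 8720 to 35245 FPKM elsewhere, with 0 of 9 apart. Of 5 smooth muscle markers, Acta2 and Des were below in replicate 1, where the list summed to 122.5 to 311 FPKM against 335 to 970 FPKM. Of the proximal position genes, 0 of 5 stood apart in replicate 1, at sums of 51.4 to 140 FPKM against 37.9 to 199 FPKM. The part of these cell markers in the levels of the Paneth products was not tested.

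**Figure D4:**
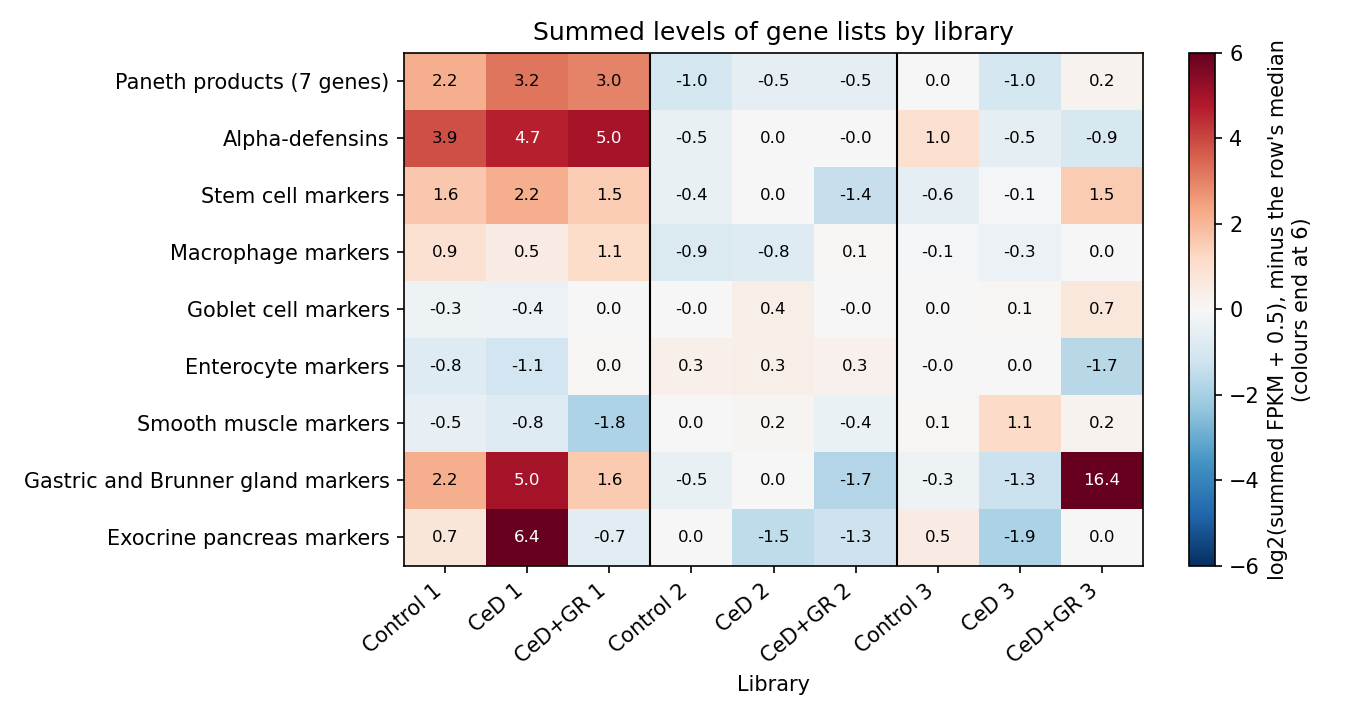
Summed FPKM of 9 gene lists in each library, as log2(sum + 0.5) minus the median of the row, ordered by replicate number; colours end at 6. The Paneth products and alpha-defensins are above 2 in all replicate 1 columns and at most 0.96 in the others, stem cell markers reach 1.54 in CeD+GR 3 as well, and the gastric list stands at 16.36 in CeD+GR 3.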

How the data were processed

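Directional RNA-seq libraries were made after removal of ribosomal RNA, per the labels' protocols. The deposited values are FPKM per gene, made by the authors. The tools listed by the submitters' processing notes, in no order and without their roles, are DESeq2 1.20.0, featureCounts 1.5.0-p3, HISAT2 2.0.5 and fastp, and the genome build is mm10. Not given in the sources used here are the FPKM formula, the strand setting and the annotation release. FPKM times gene length gave whole reads within 0.1 for 100% of values above 0 in each library, and 0 pairs of libraries were identical. FPKM are not counts, so log2(FPKM + 0.5) was fitted by group over the 9 libraries (limma 3.58.1, R 4.3.3, with a mean-variance trend). Of 54532 genes, 14683 averaged 0.5 FPKM or more and were tested, 6 of the 7 members among them. P-values are two-sided and adjusted by Benjamini-Hochberg over all tested genes at 0.05. An exact permutation test of 3 against 3 libraries cannot give a p under 0.1.

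The members and the 20 gene lists were chosen with earlier results of these data known. Named genes are the members, their paralogs, the 10 protein-coding genes nearest to the mean member profile and the nearest 1 to each member, without predicted genes, and up to 3 genes of highest mean FPKM per list; other genes were named after their values were seen, and 1 gene that the rule takes is not reported here. Alternatives were pseudocounts of 0.1 and 1, tests without the filter or from 2 FPKM upward, median-of-ratios rescaling, quantile normalization, no trend, array weights, a block of replicate numbers, a term for replicate 1, replicates 2 and 3 only, CeD 1 and CeD+GR 3 left out, only the groups compared, limma-voom on recovered reads, and each library left out in turn. Upstream windows came from RefSeq and were aligned with Biopython 1.88. The fit was tested on simulated data.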

Additional observations from a re-analysis of the deposited data

How the results depend on the processing

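Limma called 0 of 14683 genes in each comparison, and the 14 other settings, without those that leave out 1 library, also called 0. With each library left out in turn the count for CeD+GR against Control ran from 0 to 1: without Control 1 the predicted gene Gm22615 was called (adjusted p 0.0137, against 1), and it stood at 0 FPKM in Control 1. No member was called in any of these fits. Of 252 values under the other settings 229 kept their direction and 23 reversed, and of 162 with 1 library left out 126 kept it and 36 reversed. Many of the kept directions were fixed beforehand. Changing the filter, leaving out the trend and fitting only the groups compared cannot alter a log2 change. The replicate block and the term for replicate 1 cannot do so in this balanced design. Nor can leaving out a library of the group that is not compared. These counts are therefore no measure of stability, and the cause of the reversals was not tested. The deviations of 7 of 9 same-number pairs correlated above 0.1, with a highest value of 0.71, but the pairs of CeD+GR 3 with Control 3 and CeD 3 were at -0.11 and -0.12, so the numbers were not treated as pairs. Of the 9 libraries, 5 correlated best with their own number. With the replicate block limma called 0 genes in each comparison, and between CeD and Control Ang4 was at 0.45 (SE 0.35) and Mptx2 at 1.19 (SE 0.35), and Mmp7 between CeD+GR and Control at 0.999 (SE 0.36).

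Reversed log2 changes between CeD and Control were, with replicates 2 and 3 only, -0.31 for Lyz1, -0.041 for Mmp7 and -0.31 for Itln1, with array weights -0.093 for Itln1, and in a fit lacking CeD 1 and CeD+GR 3 -1.43 for Lyz1, -1.30 for Ang4, -0.14 for Mptx2, -0.95 for Mmp7, -0.82 for Itln1 and -0.19 for Habp2. Between CeD+GR and CeD they were 1.88 for Lyz1, 2.49 for Ang4 and 2.06 for Mptx2 with array weights, and 2.16, 2.22 and 2.28 in the fit lacking CeD 1 and CeD+GR 3. Between CeD+GR and Control, Lyz1 was at 2.10 with array weights and 0.72 in that fit, Itln1 was at -0.083 with replicates 2 and 3 only, and Ang4 was at -0.54 with a pseudocount of 0.1, -0.031 with quantile normalization, -0.52 with replicates 2 and 3 only and -1.03 with limma-voom.

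With 1 library left out, CeD against Control ranged from -1.43 to 1.29 for Lyz1, -1.30 to 1.96 for Ang4, -0.14 to 2.59 for Mptx2, -0.95 to 1.003 for Mmp7 and -0.82 to 0.60 for Itln1, each lowest without CeD 1 and highest without Control 1, and from -0.19 to 0.57 for Habp2. CeD+GR against CeD ranged from -1.83 to 1.30 for Lyz1, -2.48 to 1.31 for Ang4, -1.85 to 1.10 for Mptx2 and -0.68 to 1.09 for Itln1, each lowest without CeD+GR 1 and highest without CeD 1, from -0.048 to 3.15 for Habp2 and from 0.31 to 1.95 for Mmp7. CeD+GR against Control ranged from -1.66 to 0.99 for Lyz1, -2.03 to 1.51 for Ang4, -0.67 to 2.36 for Mptx2 and -0.59 to 0.80 for Itln1, each lowest without CeD+GR 1, from 0.32 to 1.91 for Mmp7 and from 0.20, without CeD+GR 3, to 3.40 for Habp2. Single directions also reversed without Control 2, Control 3, CeD 2, CeD 3, CeD+GR 2 or CeD+GR 3. Mptx1 had 16 reads in all, and Ang4 and Mptx2 had 20 and 28 outside replicate 1, which limits the precision of their values there.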
